A study of Mus musculus with 6 samples.

Results

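Fatty acid uptake, storage and release were followed through 10 genes in mouse erythroid progenitors: Plin2, Plin3, Angptl4, Fabp4, Fabp5, Cd36, Lpl, Pnpla2, Abhd5 and Abhd6. The genes were chosen by symbol as a list of lipid uptake, binding, droplet and lipolysis genes, with earlier results of these data known. All 10 were found among the 37620 genes of the deposited tables, and all 10 passed the filter on low counts, which 14125 genes passed. The cells were burst-forming unit erythroid progenitors (BFU-E), early committed progenitors of red blood cells, from 129/SvImJ mouse fetal liver at E14.5. They had been depleted of cells with lineage markers, Sca-1, CD16/32, CD41 or CD34, and sorted for c-kit and for the lowest 10% of CD71. The culture medium of the study held stem cell factor, insulin-like growth factor 1 and erythropoietin. The 3 groups were untreated cells, cells treated with 100 nM dexamethasone (Dex) for 12 h, and cells treated with 100 nM Dex and 10 µM GW7647 for 12 h. Each group had 2 libraries of polyA RNA, and no group with GW7647 alone was analysed here. The column headers of 1 deposited table carry 36 h in place of 12 h, and the labels can be read as untreated cells taken fresh or cultured in medium alone. If they were fresh, treatment and time in culture cannot be told apart in any difference against untreated cells. The labels do not say that the libraries of a group came from separate cultures or litters, so the p-values measure only the spread between these libraries, which may be technical.

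Dex activates the glucocorticoid receptor. GW7647 activates PPARα, a nuclear receptor that responds to fatty acids and switches on genes of fatty acid handling in liver and muscle. Fatty acids reach a cell from lipoproteins cut by lipoprotein lipase (Lpl), cross the membrane with help from transporters such as Cd36, and are carried in the cytoplasm by fatty acid binding proteins such as Fabp4 and Fabp5. Surplus fatty acids are stored as triglyceride in lipid droplets, which perilipins (Plin2, Plin3) coat. Adipose triglyceride lipase (Pnpla2), helped by its coactivator Abhd5, starts their release, and hydrolases such as Abhd6 cut monoglycerides. Plin2, Angptl4, Fabp4, Cd36 and Lpl are well-known targets of the PPAR family in other tissues.

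The libraries held between 35970286 and 54174801 counts, and the 2 libraries of a group correlated at 0.9982 to 0.9988 over the tested genes (Pearson, log2 scale, genes not being independent replicates). Globin transcripts took 6.483% and 7.153% of counts in untreated libraries and 2.755% to 3.12% in treated ones. Of the 12 erythroid marker genes, 12 passed the filter. Their summed level was 3403016 to 3716797 normalized counts in untreated cells, 1480838 to 1530294 after Dex and 1410467 to 1426268 after Dex with GW7647. Globin genes made up most of each sum. With Dex against untreated 9 of the 12 were lower and 1 higher, where 26.0% and 25.5% of all tested genes were. The marker that rose was Kit, at 4270 and 4311 in untreated cells and 12682 and 12630 after Dex. The mitochondrial share of counts was 1.725% for Dex replicate 1, below the 2.461% to 2.882% of the other libraries. The 10 genes together took 0.0619% to 0.069% of the counts of a library, and Fabp5 alone gave 45% to 64.9% of these. In whole populations of cells, fewer cells of a type that expresses a gene and less of its RNA per cell cannot be told apart.

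The plot of values by library shows 3 patterns among the 10 genes. Fabp4, Fabp5, Angptl4 and Cd36 stood lower in both treated groups than in untreated cells. Lpl, Plin2, Plin3, Pnpla2 and Abhd5 stood higher in both. Abhd6 stood lower after Dex and higher after Dex with GW7647. With Dex against untreated, 9 of the 10 genes passed the test, 5 higher and 4 lower, where 51.6% of all tested genes passed (25.5% higher and 26.0% lower). With Dex and GW7647 against Dex, 3 of the 10 passed, where 9.73% of all tested genes did (2.15% higher and 7.58% lower): Abhd6 and Plin2 rose and Plin3 fell. With Dex and GW7647 against untreated, 10 of the 10 passed, 6 higher and 4 lower, where 49.7% of all tested genes did (24.7% higher and 25.1% lower). Under total count scaling the split over all tested genes was 5451 higher and 2584 lower with Dex, in place of 3606 and 3677, and 5480 and 2719 with both drugs against untreated, in place of 3486 and 3539. Under that scaling the 10 genes gave 5 higher and 4 lower, and 6 higher and 3 lower. Genes were tested with the edgeR quasi-likelihood test at an adjusted p of 0.05, adjusted over all tested genes. The groups did not overlap for 10 of 10 genes with Dex against untreated (73.0% of all tested genes), for 6 of 10 with GW7647 added to Dex (53.5%), and for 10 of 10 with Dex and GW7647 against untreated (76.2%). The 3 comparisons share libraries and are therefore not independent of each other.

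**Figure D1:**
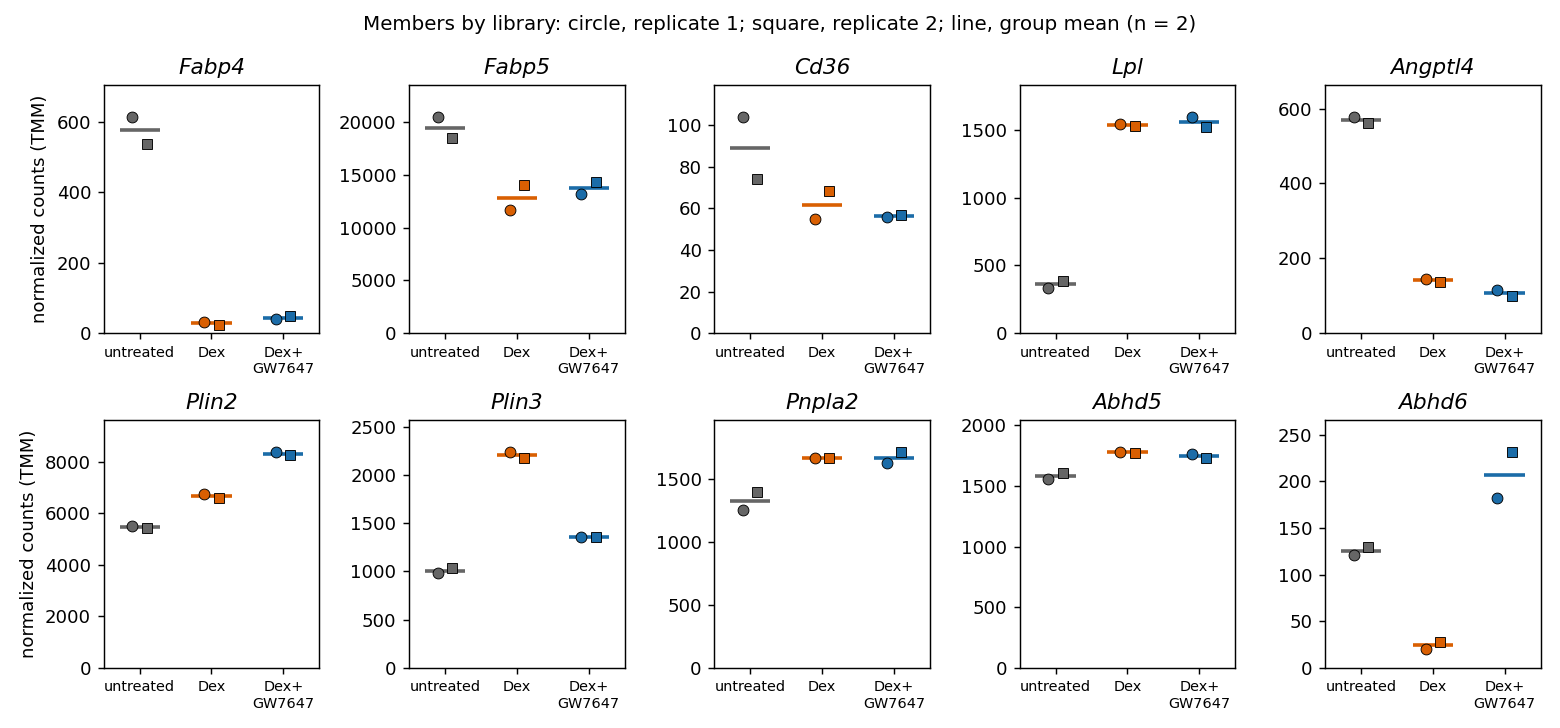
Normalized counts of the 10 genes in each of the 6 libraries (vertical axes from 0, a scale per gene; circle, replicate 1; square, replicate 2; line, mean of the 2 libraries). Abhd6 falls from 121 and 129.5 to 20.06 and 28.13 with Dex and stands at 182.3 and 231.5 with Dex and GW7647, while Lpl stands at 1525 or above in the 4 treated libraries.

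The size of the differences is given as a description, with no test of the list. The list was chosen with earlier results of these data known. A larger value than over all tested genes cannot be told apart from the effect of that choice. The median absolute log2 difference of the 10 genes was 0.86 with Dex against untreated, beside 0.27 over all tested genes. It was 0.22 beside 0.11 with GW7647 added to Dex, and 0.63 beside 0.26 with Dex and GW7647 against untreated. The signed medians were -0.18, 0.01 and 0.24, beside 0.01, 0.00 and 0.02 over all tested genes. With Dex against untreated, 5 of the 10 genes passed the test with at least a 2-fold difference, where 12.2% of all tested genes did. With GW7647 added to Dex the count was 1 of 10, beside 1.54%, and with Dex and GW7647 against untreated 3 of 10, beside 12.5%.

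Abhd6, Plin2 and Plin3 differed between Dex with GW7647 and Dex, and the stretch upstream of each is shown because both drugs act through nuclear receptors that bind DNA. Promoter sequences were found for 6 of the 10 genes, those of Plin2, Plin3, Cd36, Pnpla2, Abhd5 and Abhd6. They come from RefSeq on build GRCm38.p6 and are printed 5′ to 3′ on the strand of the gene, for the 250 bases before the transcription start, with any AGGTCA (the core letters bound by PPAR and related receptors, read as TGACCT on the other strand) in capitals. The upstream stretch of Plin2 is chr4:86670060-86670309 on the minus strand, that of Plin3 is chr17:56290512-56290761 on the minus strand, and that of Abhd6 is chr14:8002638-8002887 on the plus strand.
Plin2: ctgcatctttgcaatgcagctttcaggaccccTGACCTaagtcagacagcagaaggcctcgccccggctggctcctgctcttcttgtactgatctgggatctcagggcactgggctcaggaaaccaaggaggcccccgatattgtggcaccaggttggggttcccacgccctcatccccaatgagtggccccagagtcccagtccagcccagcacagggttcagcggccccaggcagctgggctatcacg
Plin3: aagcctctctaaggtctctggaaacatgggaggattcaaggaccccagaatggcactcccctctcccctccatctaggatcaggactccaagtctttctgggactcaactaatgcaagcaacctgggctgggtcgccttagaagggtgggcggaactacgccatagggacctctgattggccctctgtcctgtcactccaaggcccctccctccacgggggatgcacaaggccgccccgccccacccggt
Abhd6: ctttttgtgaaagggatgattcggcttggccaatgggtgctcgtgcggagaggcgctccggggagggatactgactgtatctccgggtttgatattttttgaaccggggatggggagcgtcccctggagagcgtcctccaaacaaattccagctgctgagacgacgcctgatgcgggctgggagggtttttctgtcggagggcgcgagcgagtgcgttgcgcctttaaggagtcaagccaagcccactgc

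Windows of 300 bases, from 250 before to 50 after the start, were searched on both strands. Abhd6 had 2 such windows, the other at chr14:8002716-8003015, and both were searched. AGGTCA was found in 3 of the 6 genes with a window, each time as TGACCT: in Plin2 at bases -218 to -213 from the start, in Cd36 at -228 to -223 and in Abhd5 at -69 to -64. Among all 32851 windows, 16.3% held it. The direct repeat of AGGTCA with 1 base between its copies and at most 1 mismatch, the kind of site bound by PPAR with its partner RXR, was in 0.554% of all windows and in none of these. AGAACA, the core of glucocorticoid receptor sites, was in 19.0% of all windows, and AGAACA followed after 3 bases by its reverse complement with at most 2 mismatches was in 1.84%. Neither was in the windows of the 6 genes. These are matches of letters in a short window, and sites elsewhere were not searched.

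Fabp4, a fatty acid binding protein best known from adipocytes and macrophages, was the most changed of the 10 after Dex. It stood at 612.5 and 537.7 normalized counts in untreated cells, at 31.64 and 22.5 after Dex, and at 38.81 and 48.42 after Dex with GW7647. Every treated library was far below both untreated ones. The difference was 21.2-fold lower with Dex (log2 -4.38 ± 0.17 SE, adjusted p = 3.16e-08) and 13.2-fold lower with Dex and GW7647 (log2 -3.73 ± 0.17, adjusted p = 7.71e-08). Both libraries with GW7647 were above both Dex libraries, but the difference did not pass the test (log2 0.65, 95% interval 0.12 to 1.18, adjusted p = 0.123). The treated values rest on 24 to 43 reads per library, against 465 and 501 in untreated cells.

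Markers of the other cells known for Fabp4 were examined beside it. Of 6 adipocyte markers, 0 passed the filter, and their summed level was between 1.156 and 6.173 normalized counts in every library, with Lep at 0 in all 6. Of 12 monocyte and macrophage markers, 4 passed (Lyz2, Csf1r, Cd68 and Adgre1), and Cd163 and C1qa were at 0 in every library. The summed macrophage markers stood at 1662 to 1726 in untreated cells, 706 to 753.8 after Dex and 509.1 to 519.7 after Dex with GW7647. Lyz2, a lysozyme shared with granulocytes, carried most of that sum, at 1307 and 1226 when untreated and 205.8 to 361.9 in treated libraries. Csf1r, the receptor for macrophage colony-stimulating factor, stood at 260.4 and 260.2 in untreated cells, against 226.1 and 232.5 with Dex (adjusted p = 0.193), and was lower when GW7647 was added (log2 -0.52, adjusted p = 0.0185). Adgre1, the macrophage antigen F4/80, fell with Dex from 45.48 ± 14.2 to 8.16 ± 1.72 (log2 -2.49 ± 0.45, adjusted p = 0.0012), and Cd68, a lysosomal protein, rose (log2 0.50 ± 0.14, adjusted p = 0.0145). Of 11 endothelial and stromal markers, 6 passed, with sums of 1205 to 1347, 1343 to 1352 and 943.6 to 981.1. Within that sum Pecam1 (log2 -1.33) and Kdr (log2 -1.06) fell with Dex, and Pdgfrb rose (log2 1.68). Granulocyte markers, 11 of 11 passing, summed to 15372 to 16388 in untreated cells, 7156 to 7487 after Dex and 4425 to 4523 after Dex with GW7647. Lymphoid markers (3 of 8 passing) summed to 225.5 to 228.6, 64.69 to 75.62 and 36.1 to 43.7, and hepatoblast markers (4 of 9, with Serpina1a at 0) to 104.1 to 117.4, 259.7 to 282.4 and 159.4 to 175.1. Within the hepatoblast sum Apoa1 stood at 9.78 and 4.625 in untreated cells, 158.2 and 152.8 after Dex, and 100.2 and 111 with both drugs. Alb stood between 1.223 and 4.688 in every library. The part of such cells in the Fabp4 values was not tested.

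Fabp5, the fatty acid binding protein of epidermis, was by far the most abundant of the 10. It stood at 20486 and 18494 normalized counts in untreated cells, 11642 and 14084 after Dex, and 13200 and 14301 after Dex with GW7647. Both untreated libraries were above all 4 treated ones, whose values overlapped between the treated groups. It fell 1.52-fold with Dex (log2 -0.60 ± 0.09, adjusted p = 0.000263) and 1.42-fold with Dex and GW7647 (log2 -0.50 ± 0.09, adjusted p = 0.000882). With GW7647 added to Dex the difference was 0.10 on the log2 scale, with an interval of -0.10 to 0.29 (adjusted p = 0.546). Without Dex replicate 2 it was 0.25 and passed the test (adjusted p = 0.0442). A retrogene, Fabp5l2, matches the Fabp5 transcript at 94.1% over 405 bases, so reads could be split between the copies.

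Cd36, a membrane receptor that takes up long-chain fatty acids, was the lowest per length of the 10 in untreated cells. It stood at 103.9 and 74 normalized counts in untreated cells, 54.78 and 68.45 after Dex, and 55.96 and 56.69 after Dex with GW7647, from 48 to 85 reads per library. All 4 treated libraries were below both untreated ones, by a small margin for Dex replicate 2. The difference did not pass the test with Dex (log2 -0.53 ± 0.21, adjusted p = 0.0547), and it passed with Dex and GW7647 (log2 -0.66 ± 0.22, adjusted p = 0.0294). Neither call was stable: the Dex difference passed when untreated replicate 2 or Dex replicate 2 was left out (log2 -0.76 and -0.71, adjusted p = 0.0218 and 0.035) and shrank when untreated replicate 1 or Dex replicate 1 was (log2 -0.27 and -0.37, adjusted p = 0.397 and 0.239). With Dex and GW7647 the difference missed the threshold in 6 of 13 alternative analyses, among them those without untreated replicate 1 (adjusted p = 0.233) or either library with GW7647 (adjusted p = 0.112 and 0.09). Between the treated groups the difference was -0.12, with an interval of -0.61 to 0.37 (adjusted p = 0.787).

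Lpl and Angptl4 form a pair of opposites, since Lpl cuts triglyceride in lipoproteins and Angptl4 inhibits it. Lpl stood at 336.2 and 386.2 normalized counts in untreated cells, 1549 and 1529 after Dex, and 1597 and 1525 after Dex with GW7647. The treated libraries were all about alike and well above both untreated ones. Lpl rose 4.26-fold with Dex (log2 2.09 ± 0.07, adjusted p = 1.81e-08) and 4.32-fold with Dex and GW7647 (log2 2.11 ± 0.07, adjusted p = 2.21e-08). Adding GW7647 to Dex gave a difference of 0.02, with an interval of -0.12 to 0.16 (adjusted p = 0.883).

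Angptl4 moved the other way. It stood at 577 and 562 normalized counts in untreated cells, 143.5 and 137.8 after Dex, and 115.5 and 98.03 after Dex with GW7647. The groups did not overlap, in the order untreated, Dex, Dex with GW7647. It fell 4.05-fold with Dex (log2 -2.01 ± 0.11, adjusted p = 2.68e-07) and 5.33-fold with Dex and GW7647 (log2 -2.40 ± 0.11, adjusted p = 1.23e-07). The step from Dex to Dex with GW7647 did not pass the test (log2 -0.39, interval -0.67 to -0.11, adjusted p = 0.0877). Both libraries with GW7647, which was always given together with Dex, held the lowest values. The effect of GW7647 without Dex on Angptl4 was not tested.

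Among the 11267 other genes with a symbol and a mean of at least 50 normalized counts, those with a profile over the 6 libraries close to that of Angptl4 included Pf4 and Gnaz, at Euclidean distances of 0.23 and 0.25 on the log2 scale. Pf4 is a platelet factor made by megakaryocytes, and it stood at 14416 and 15514 normalized counts in untreated cells, 4033 and 3584 after Dex, and 2698 and 2514 after Dex with GW7647. All 10 megakaryocyte markers passed the filter, and their sum was 44356 to 46780 in untreated cells, 20743 to 22680 after Dex and 15511 to 15580 after Dex with GW7647. With Dex against untreated 9 of these 10 markers were lower and 0 higher, where 26.0% of all tested genes were lower. With GW7647 added to Dex 8 were lower and 0 higher, where 7.58% of all tested genes were lower. Other lists moved alike: of the 11 granulocyte markers 9 were lower and 0 higher in each of these comparisons. The sort had removed cells positive for CD41, the product of the marker Itga2b. Itga2b stood at 9579 and 9866 in untreated cells, 9514 and 8432 after Dex, and 5973 and 5965 after Dex with GW7647. The part of megakaryocyte-lineage RNA in the Angptl4 values was not tested. The genes closest to Fabp4 were Prss50, Ackr3 and Myo5c, at 0.56, 0.79 and 0.87.

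Plin2, the main droplet coat protein outside fat cells, rose in steps. It stood at 5512 and 5427 normalized counts in untreated cells, 6752 and 6575 after Dex, and 8373 and 8241 after Dex with GW7647. The 3 groups did not overlap, and the libraries of each group lay close together. Plin2 rose 1.22-fold with Dex (log2 0.28 ± 0.04, adjusted p = 0.000458), a further 1.25-fold when GW7647 was added (log2 0.32 ± 0.04, adjusted p = 0.0015), and 1.52-fold over both (log2 0.60 ± 0.04, adjusted p = 2.75e-06). These differences are small beside those of Fabp4 or Lpl, and they passed the test in every alternative analysis that was run.

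Plin3, a coat protein that moves from the cytoplasm to new droplets, rose with Dex and fell back when GW7647 was added. It stood at 985.4 and 1030 normalized counts in untreated cells, 2236 and 2176 after Dex, and 1357 and 1359 after Dex with GW7647. The libraries with both drugs lay between the other groups, with no overlap. Plin3 rose 2.19-fold with Dex (log2 1.13 ± 0.05, adjusted p = 1.17e-07). With GW7647 added it was 1.62-fold lower than with Dex alone (log2 -0.70 ± 0.05, adjusted p = 3.13e-05) and 1.35-fold higher than in untreated cells (log2 0.43 ± 0.06, adjusted p = 0.000128). Of the 11 mast cell and basophil markers, 10 passed the filter. With Dex 4 were higher and 6 lower, where 25.5% of all tested genes were higher and 26.0% lower. With GW7647 added to Dex 0 were higher and 9 lower, where 2.15% of all tested genes were higher and 7.58% lower. Their sum was 12428 to 12714 in untreated cells, 23509 to 23667 after Dex and 15283 to 15820 after Dex with GW7647. The rise with Dex was carried by Hdc (1749 ± 0.779 to 8683 ± 277, SD, n = 2) and Il1rl1 (967.3 ± 23.8 to 7130 ± 342). Mast cell and basophil proteases such as Cma1 (log2 -2.01) and Mcpt8 (log2 -2.73) fell with Dex. The protease Tpsb2 stood at 101.5 and 102.9 in untreated cells, 169.7 and 137.8 after Dex, and 32.49 and 24.8 with both drugs. The part of such cells in the Plin3 values was not tested. The 2 perilipins differed in direction when GW7647 was added, each passing the test on its own.

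Pnpla2 and Abhd5, the lipase that opens triglyceride stores and its coactivator, changed little. Pnpla2 stood at 1254 and 1401 normalized counts in untreated cells, 1673 and 1670 after Dex, and 1628 and 1717 after Dex with GW7647. Abhd5 stood at 1560 and 1603 in untreated cells, 1780 and 1773 after Dex, and 1762 and 1734 after Dex with GW7647. Both were a little higher in every treated library than in either untreated one. Pnpla2 rose 1.26-fold with Dex (log2 0.33 ± 0.06, adjusted p = 0.00166) and Abhd5 1.12-fold (log2 0.17 ± 0.05, adjusted p = 0.0178). With Dex and GW7647 against untreated, Pnpla2 was also 1.26-fold higher (adjusted p = 0.00188). With GW7647 added to Dex, the difference was 0.00 for Pnpla2 (interval -0.14 to 0.14, adjusted p = 1) and -0.02 for Abhd5 (interval -0.13 to 0.09, adjusted p = 0.825).

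The Abhd5 calls were the weakest of the 10. The Dex difference missed the threshold with DESeq2 (adjusted p = 0.0861) and without untreated replicate 1 (adjusted p = 0.0957). The difference with Dex and GW7647 against untreated (log2 0.14 ± 0.05, adjusted p = 0.037) missed it in 7 of 13 alternative analyses. Leaving out either untreated library (adjusted p = 0.155 and 0.0765) or either library with GW7647 (adjusted p = 0.199 and 0.127) was enough. A gene on the opposite strand, A730085K08Rik, overlaps Abhd5 by 950 bases in the GRCm38 annotation, but it held only 11 counts over the 6 libraries.

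Abhd6, a serine hydrolase that cuts monoglycerides, including the endocannabinoid 2-arachidonoylglycerol, had the largest difference of the 10 when GW7647 was added. It stood at 121 and 129.5 normalized counts in untreated cells, 20.06 and 28.13 after Dex, and 182.3 and 231.5 after Dex with GW7647. The Dex libraries were far below the others, and the libraries with both drugs were above the untreated ones. It was 5.2-fold lower with Dex (log2 -2.39 ± 0.22, adjusted p = 1.15e-05). With GW7647 added it was 8.59-fold higher than with Dex alone (log2 3.11 ± 0.21, interval 2.64 to 3.57, adjusted p = 1.64e-05). It was 1.65-fold higher than in untreated cells (log2 0.71 ± 0.17, adjusted p = 0.0059), and this call was lost without the GW7647 replicate 2 library (log2 0.54, adjusted p = 0.0512). The Dex value rests on 26 and 30 reads, against 196 to 202 with GW7647.

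The genes closest to Abhd6 in profile were Slc7a3, a cationic amino acid transporter, at 1.16, Gpt2, a mitochondrial alanine transaminase, at 1.75, and Runx1t1, a transcriptional corepressor, at 1.95. Slc7a3 stood at 114.9 and 139.9 normalized counts in untreated cells, 37.04 and 41.25 after Dex, and 140.8 and 160.6 after Dex with GW7647. Each of these distances is wider than those of Pf4 and Gnaz to Angptl4. No marker list had more than 1 member called higher with GW7647 added to Dex: in the erythroid list 1 of 12 was higher (Slc4a1, log2 0.17) and 1 lower (Hbb-bt, log2 -0.36).

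**Figure D2:**
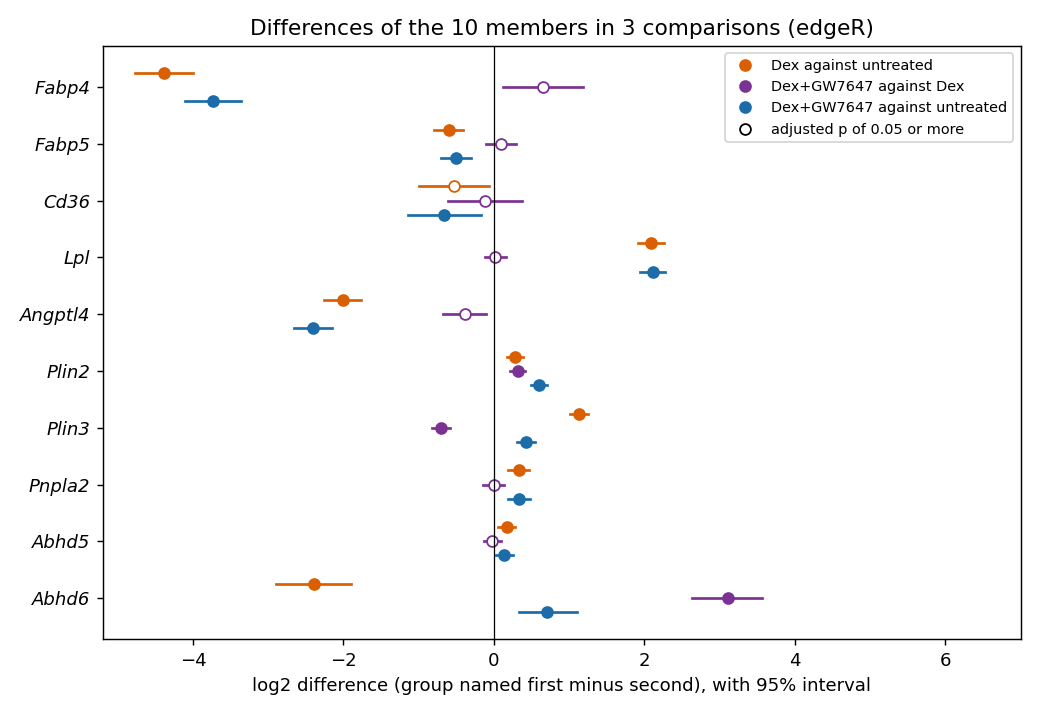
Log2 differences of the 10 genes in the 3 comparisons (horizontal axis, first group minus second), with 95% intervals from edgeR; filled points passed an adjusted p of 0.05. Purple points, for GW7647 added to Dex, lie away from 0 and filled for Abhd6 (3.11), Plin2 (0.32) and Plin3 (-0.70), and open points sit near 0 for Lpl, Pnpla2 and Abhd5.

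Levels of different genes were compared as CPM (counts scaled to a common library size) per kb of exon. In untreated cells the order was Fabp5 at 455.1, Plin2 at 66.76, Fabp4 at 14.79, Pnpla2 at 11.66, Abhd5 at 11.54, Plin3 at 6.372, Angptl4 at 3.968, Lpl at 2.023, Abhd6 at 1.221 and Cd36 at 0.5798. Neighbours in this order did not overlap over their libraries, except Pnpla2 and Abhd5. After Dex, Fabp5 (300.3) and Plin2 (81.34) stayed on top. Plin3 rose to 13.95 and Lpl to 8.619, while Fabp4 fell to 0.6962 and Abhd6, at 0.2348, became the lowest. After Dex with GW7647 the lowest was Cd36 (0.3671), and Abhd6 stood at 2.016. In that group Lpl and Plin3, at 8.741 and 8.589, overlapped.

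**Figure D3:**
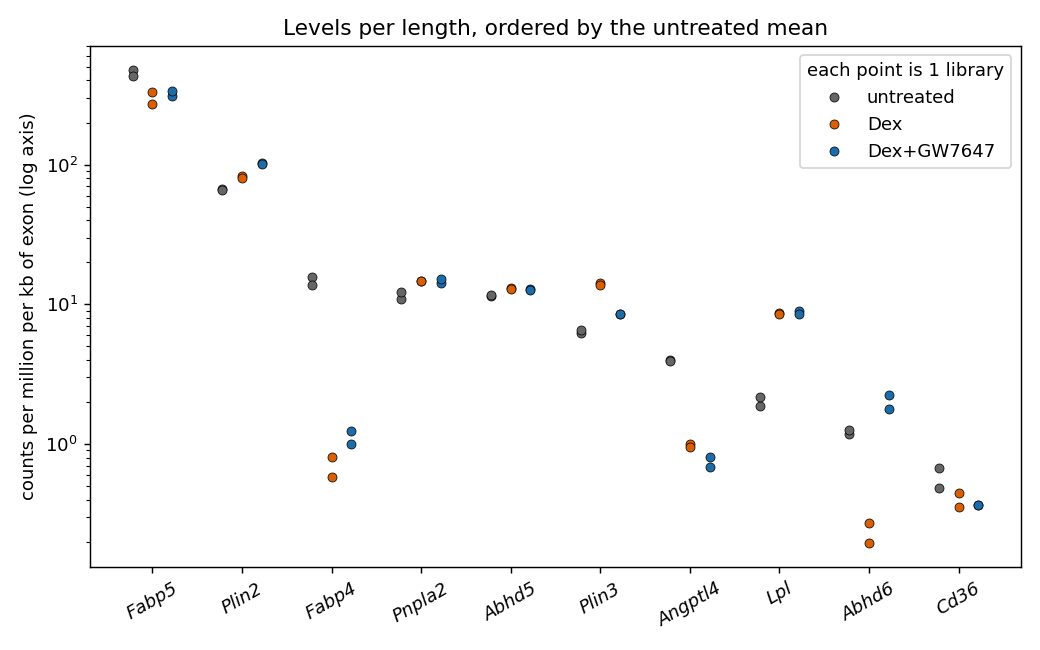
CPM per kb of exon for the 10 genes (vertical log axis), a point for each library, with genes ordered by the mean in untreated cells. Fabp5 and Plin2 are the highest in all 6 libraries, and Fabp4, Angptl4, Lpl and Abhd6 shift by the largest steps between groups.

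A wider set of 78 genes in 6 lists of lipid handling was examined for context, of which 53 passed the filter. With Dex against untreated, 13 were higher and 18 lower. With GW7647 added to Dex, 3 were higher and 5 lower. With Dex and GW7647 against untreated, 13 were higher and 21 lower. The median differences of the 53 genes were -0.09, -0.07 and -0.07. The shares over all tested genes are those given for the 10 genes above. Scaling by total counts shifted the median of all tested genes with Dex from 0.01 to 0.14 and turned the split of the 53 genes to 16 higher and 13 lower, and with Dex and GW7647 against untreated to 19 higher and 18 lower. The count of 8 with GW7647 added to Dex depended on the method: DESeq2 gave 2, the authors' deposited table gave 3, and leaving out either library with GW7647 gave 2. Without Dex replicate 1, the library with fewer mitochondrial transcripts, the counts of the 53 genes were 34, 5 and 36, and those of the 10 genes 9, 3 and 10.

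Of 15 further genes of lipolysis and monoglyceride hydrolysis, 11 were tested, with 4 higher and 3 lower after Dex. Over all tested genes 25.5% were higher and 26.0% lower with Dex. Mgll, monoglyceride lipase, which acts on the same substrates as Abhd6, stood at 413.2 and 429 normalized counts in untreated cells, 34.72 and 27.19 after Dex, and 52.35 and 83.85 after Dex with GW7647. It fell with Dex by a log2 difference of -3.75 ± 0.20 (adjusted p = 2.89e-07). The treated groups did not overlap, and with GW7647 it was 2.2-fold higher than with Dex (log2 1.09 ± 0.25, adjusted p = 0.0219). That call was lost by the adjusted p in the authors' deposited table (0.318) and when Dex replicate 2 (adjusted p = 0.0554) or the GW7647 replicate 2 library (adjusted p = 0.15) was left out. Unlike Abhd6, Mgll remained below its untreated level with GW7647 (log2 -2.66 ± 0.19, adjusted p = 1.88e-06). Pnpla6, a lysophospholipase, rose 1.399-fold and Nceh1, a cholesteryl ester hydrolase, 1.483-fold with Dex, while Pnpla8, a phospholipase of mitochondria and peroxisomes, fell (log2 -0.76).

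In the list of droplet coat and assembly genes, 8 of 14 were tested. Bscl2, which encodes seipin, a protein of droplet formation, rose 1.583-fold with Dex, and Aup1, a droplet-associated ubiquitin ligase adaptor, fell (log2 -0.66). Hsd17b11, a droplet-associated dehydrogenase, stood at 348.4 and 346.9 normalized counts in untreated cells, 512.3 and 607.6 after Dex, and 339.4 and 322.4 after Dex with GW7647. It rose with Dex (log2 0.68 ± 0.10, adjusted p = 0.000283) and was lower with GW7647 added (log2 -0.75 ± 0.10, adjusted p = 0.00106), the same directions as for Plin3. With both drugs Hsd17b11 stood below both of its untreated values, whereas Plin3 stayed above its untreated values. Hilpda, an inhibitor of Pnpla2, stood at 365.5 and 374.6 in untreated cells, 393.5 and 389.1 after Dex, and 536.1 and 484.2 after Dex with GW7647. It rose with GW7647 added to Dex (log2 0.39 ± 0.08, adjusted p = 0.0173), the same direction as Plin2. That call was lost with DESeq2 (adjusted p = 0.0651) and without the GW7647 replicate 1 library (log2 0.31, adjusted p = 0.209).

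In the lipase system and the lipoprotein receptors, 9 of 14 genes were tested, and with Dex 6 were lower and 0 higher. Over all tested genes 25.5% were higher and 26.0% lower with Dex, the shares to set beside the count of each list here. Lipg, endothelial lipase, fell from 119.7 ± 18.8 (SD, n = 2) to 48.93 ± 3.73 normalized counts with Dex. Lrp1, a lipoprotein receptor, fell with Dex (log2 -0.75) and again when GW7647 was added (log2 -0.61, adjusted p = 0.0406), but the latter call was lost in 10 of 13 alternative analyses. In triglyceride and cholesteryl ester synthesis, 13 of 14 genes were tested, with 3 higher and 4 lower after Dex. Lpin2, a phosphatidate phosphatase, stood at 47821 and 48040 normalized counts in untreated libraries and fell to 18091 and 17879 with Dex (log2 -1.41 ± 0.04, adjusted p = 7.5e-09). Its relative Lpin1 rose 1.451-fold. In fatty acid transport and activation, 9 of 13 genes were tested, with 2 higher and 4 lower after Dex. With GW7647 added to Dex 0 were called at this threshold, where 9.73% of all tested genes were. Slc27a3, an acyl-CoA synthetase of the transporter family, rose 2.376-fold with Dex, and Acsl6 fell (log2 -1.08). Of the other lipid binding proteins, 3 of 8 were tested, and Scp2 and Dbi rose with Dex by 1.304-fold and 1.146-fold.

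**Figure D4:**
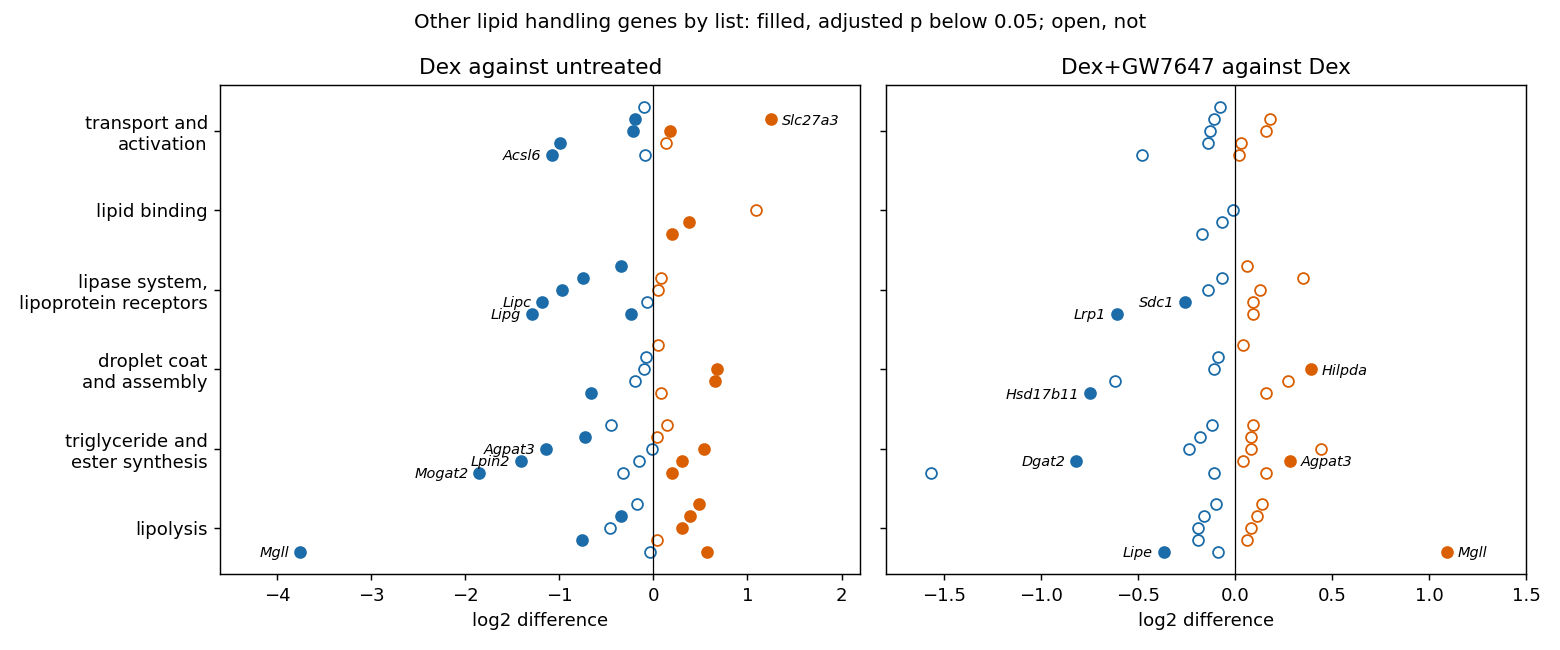
Log2 differences of the 53 tested genes of the 6 lists, with Dex against untreated on the left and Dex with GW7647 against Dex on the right (a point per gene, filled where the adjusted p was below 0.05). Mgll lies at -3.75 on the left and 1.09 on the right, and Hsd17b11 and Lrp1 are filled and below 0 on the right.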

How the data were processed

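Per the labels' protocols, polyA RNA was made into TruSeq libraries, and per the submitters' processing notes reads were processed with TopHat 1.4.1, HTSeq and DESeq on mm9 (NCBIM37). The deposited tables hold whole-number read counts per gene for each library. The authors' normalized signal, in which they scaled each library by its own factor within a table, was deposited beside the counts and was not used for tests. The authors also deposited a fold ratio of group means and a p-value with its adjusted form, for 2 of the 3 comparisons. Strand use in counting is not given in the sources used here. Ensembl identifiers were matched to symbols for 32897 of 37620 genes (87.45%), and exon lengths and overlaps come from GENCODE M21 (GRCm38), a later build.

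From the counts, edgeR's filterByExpr (minimum count 10) kept 14125 genes with 99.971% of counts. Libraries were scaled by TMM and genes tested in a single fit of all 6 libraries with edgeR 4.0.16 in R 4.3.3 (quasi-likelihood, Benjamini-Hochberg, threshold 0.05). The procedure was tested on simulated data. To give normalized counts, each count was divided by its library's TMM-scaled size and multiplied by the mean size. Alternatives were total count scaling, DESeq2 1.42.0, no filter, limma-trend (limma 3.58.1), only the 4 libraries compared, a replicate block, the authors' deposited adjusted p, and leaving out each library. No sample of the tables was left out.

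The named genes were all 10 genes of the list, up to 2 called genes per direction from each of the 6 lists and each comparison whose mean reached 50 normalized counts, and the 3 genes closest in profile to each of the 3 listed genes with the widest range. A gene that this rule names is not reported here. The genes and lists were chosen with earlier results of these data known.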

Additional observations from a re-analysis of the deposited data

How the results depend on the processing

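No single-gene difference that passed the test changed sign under the alternatives run. Differences with GW7647 added to Dex that did not pass changed sign for Fabp5 (-0.03 to 0.25), Cd36 (-0.28 to 0.05), Lpl (-0.01 to 0.05) and Pnpla2 (-0.04 to 0.04). Counting each named gene, comparison and alternative separately, 890 values kept their side of the threshold, 65 lost their call and 4 gained one. With GW7647 added to Dex, 1374 genes were called over all genes, 2085 with no filter on low counts, and between 548 and 1729 when a library was left out. The counts without the GW7647 libraries were 548 (replicate 1) and 618 (replicate 2). The 8 lipid handling genes called in that comparison became 2 with DESeq2, 3 with the replicate block, 3 by the authors' deposited adjusted p, and between 2 and 7 when a library was left out (5 without Dex replicate 1, 2 without either GW7647 library). Hsd17b11 kept its call in all 13 alternatives of that comparison. Replicate numbers were not used to pair the libraries in the main fit. Deviations from group means correlated at -0.212 between untreated and Dex, -0.0461 between untreated and both drugs, and 0.149 between the treated groups. With 2 libraries per group these values cannot show whether the libraries were paired. With the replicate block, 6824, 998 and 6523 genes were called and 9, 3 and 9 of the 10 genes, with only Abhd5 losing its call, for Dex and GW7647 against untreated. Depth limits Cd36, Fabp4 and Abhd6, whose lowest libraries held 48, 24 and 26 reads.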
